A study of Mus musculus with 28 samples.

Results

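The mouse long telomere (LT) line was compared here between an early and a late stage of an in vitro germ line culture: 1-day embryoid bodies (LT 1dEB) and 1-day meiocyte-like cells (LT 1dMeioLC), with 2 libraries each. A gene was kept when it reached 1 TPM (a length-corrected share of the transcripts of a library) in at least 2 of these 4 libraries, which left 17699 of 53564 gene symbols. The LT line is a wild-type embryonic stem cell line on the C57BL6 strain. It was primed for 2 days with bFGF and activin A towards epiblast-like cells and then induced with BMP4 (500 ng/ml), LIF (1000 IU), stem cell factor (SCF, 100 ng/ml) and EGF (50 ng/ml). LT 1dEB samples were taken after 1 day of that induction, with no sort named in the labels. The PGC-like cells used for the later stage came after 4 days of it. LT 1dMeioLC samples came from aggregates of PGC-like cells with gonadal somatic cells of female E12.5 embryos of Actin-GFP mice. The aggregates were kept for 1 day in a serum medium with 3 µM retinoic acid (RA), 50 µg/ml vitamin C and 10 µM Y27632, and GFP-negative cells were sorted from them. The 2 stages therefore differ in time, medium, co-culture and sorting at once, and these cannot be told apart. The stage between them, the PGC-like cells, was not analysed here.

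The same 2 stages of a short telomere line (ST, Terc knockout of generation 4) and of a Terc-rescued line (RT), both C57BL6, were used only to ask where the LT change differed. Primordial germ cells (PGCs) sorted from E10.5 embryos by CD61 and SSEA1, and the same cells after the 1-day aggregate culture (PGC-1dMeioLC), gave reference levels. Each of these 6 groups also had 2 libraries. The labels do not say whether the replicates came from separate cultures, so p-values measure the spread between these libraries, which may be technical. TPM values hold no read depth, so the counting error behind a value is unknown.

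In the mouse embryo, PGCs arise from the epiblast in response to BMP signals, switch off the epiblast programme, retain some pluripotency factors and remove most DNA methylation. After reaching the gonad they gain germ cell genes such as Dazl and Ddx4. In a female gonad, RA and BMP signals then induce Stra8, whose product activates genes of the meiotic chromosome axis and synaptonemal complex, the protein zipper between paired homologues. Many germ cell and meiotic promoters are held silent before that stage by a Polycomb complex, PRC1.6, whose MGA/MAX and E2F6 subunits recognise the E-box CACGTG and E2F-type sites.

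The libraries of the stages differed in their makeup. Nuclear protein-coding genes held 38.7% and 38.9% of all TPM in LT 1dEB, against 60.7% and 60.9% in LT 1dMeioLC. A set of rRNA-like transcripts held 27.4% and 27.3% in LT 1dEB, against 1.91% and 1.90% in LT 1dMeioLC, and mitochondrial rRNA held 5.20% ± 0.306 against 1.81% ± 0.0403 (SD, n = 2 each). All values below are therefore scaled TPM, in which nuclear protein-coding genes add up to 1000000 in every library. Fold changes are on the log2(scaled TPM + 1) scale, which understates changes of low genes, and were tested with limma over all 16 libraries with Benjamini-Hochberg adjustment. Replicates correlated across the kept genes at r = 0.972 in LT 1dEB and 0.978 in LT 1dMeioLC.

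A gene is called here at an adjusted p under 0.05 with a change of at least 2-fold. Of 17699 genes, 8652 were called (48.9%): 3727 were higher in LT 1dMeioLC (21.1%) and 4925 were lower (27.8%). At an adjusted p under 0.05 with no limit on size, 13251 genes passed (74.9%), 5694 higher (32.2%) and 7557 lower (42.7%). Among 13143 nuclear protein-coding genes, 2736 were higher (20.8%) and 3347 were lower (25.5%). The median change over all genes was -0.20 with the main scaling, 0.33 with TPM as deposited, 0.00 with median-of-ratios scaling and -0.02 with quantile normalization. The split moved with it: 5183 higher and 2697 lower as deposited, 3841 and 3760 with median-of-ratios scaling, and 4306 and 4334 with quantile normalization. Calls and changes below are against 0, with no shift by the median of -0.20. Counts of list members are to be set beside the shares of all genes, 21.1% higher and 27.8% lower. Lists can share genes, such as Hormad1 in the late germ cell and meiotic axis lists, so their counts are not independent. The fitted change was at least 3 on the log2 scale for 659 genes and at most -3 for 720. The filter passed genes such as Tspoap1, whose TPM was 1.01 and 1.00 in LT 1dEB and 0.183 and 0.137 in LT 1dMeioLC, and Trpc2, at 1.22 and 1.00 against 0.485 and 0.340. Just outside it lay Nos1, at 1.15 and 0.999961, and Tspear, whose second-highest TPM of the 4 was 0.999618.

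**Figure D1:**
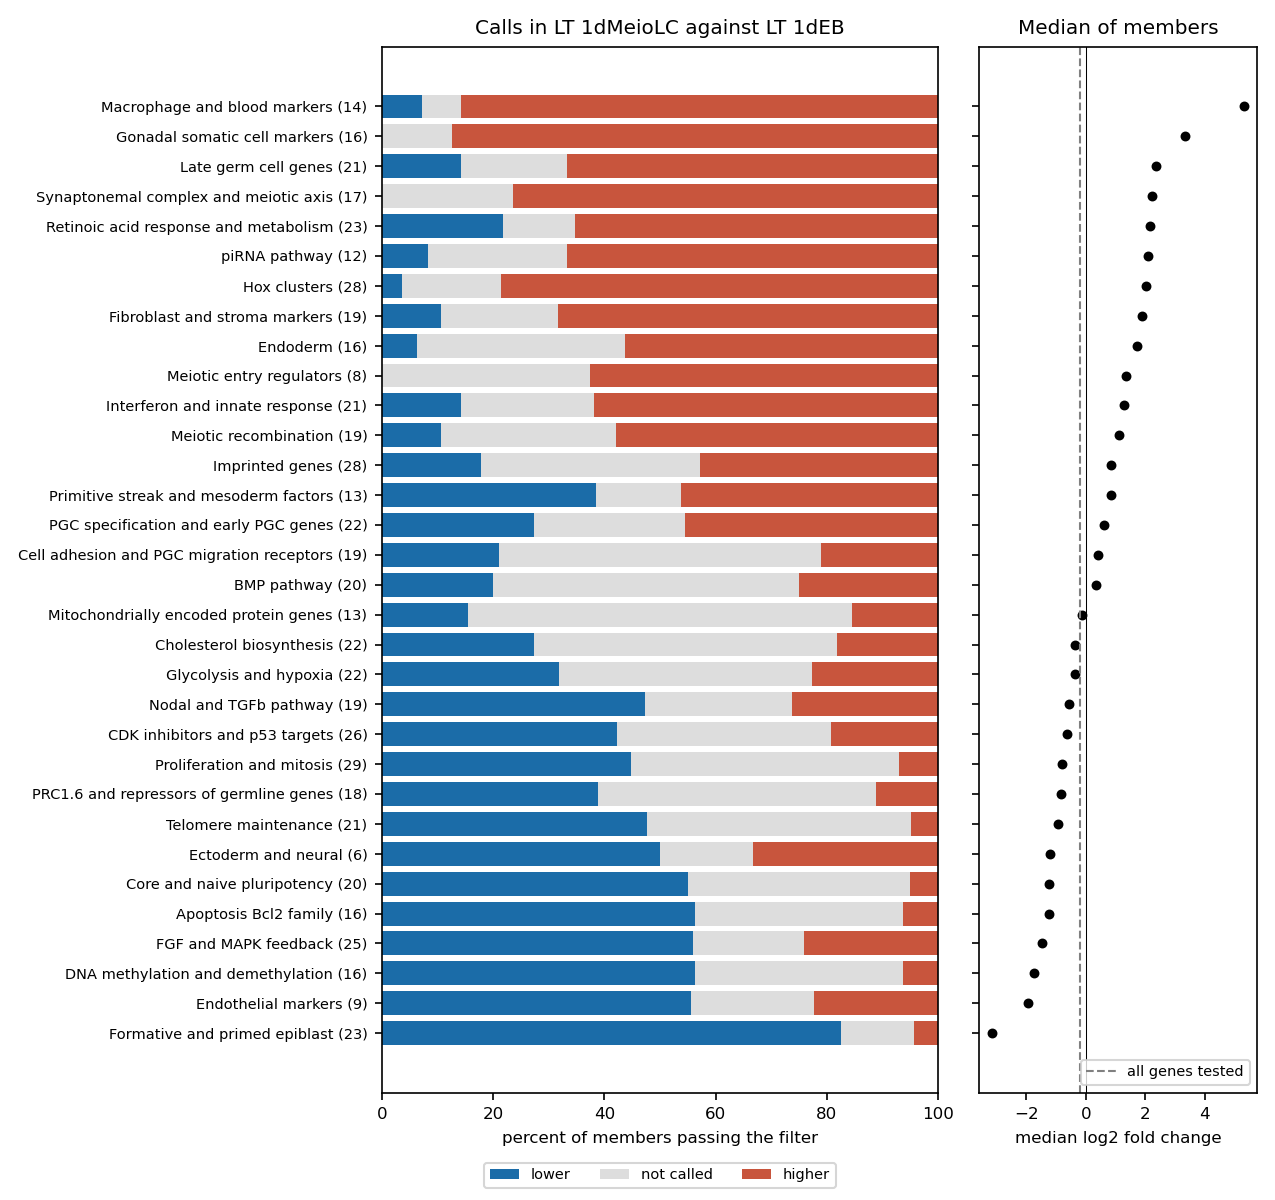
Share of members called lower, not called and called higher in LT 1dMeioLC against LT 1dEB for each gene list, with the number of members passing the filter in brackets (left, percent), and the median log2 fold change of those members (right), with the median of all genes tested (-0.20) as a dashed line. Macrophage and blood, gonadal somatic and late germ cell lists have the highest medians, and the formative and primed epiblast list the lowest, at -3.16.

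Germ cell genes rose in LT 1dMeioLC, and the genes by which meiocyte-like cells are named were among them. Of 21 late germ cell genes that passed the filter, 14 rose and 3 fell, with a median change of 2.38. Dazl, an RNA-binding protein that licenses germ cells for sexual differentiation, lies at chr17:50279395-50293636 on the minus strand (mm10). It stood at 8.56 and 6.76 in LT 1dEB and at 576 and 557 in LT 1dMeioLC. Its libraries did not overlap, and the change was 6.04 ± 0.114 (SE; limma adjusted p = 2.02e-11). The level in LT 1dMeioLC lay between the 471 of embryonic PGCs and the 848 of PGC-1dMeioLC (means of 2 libraries). Ddx4, a germ cell RNA helicase of the nuage, rose from 13.9 and 9.67 to 61.6 and 54.0, a change of 2.22 ± 0.225 (limma adjusted p = 5.73e-06). Its mean in embryonic PGCs was 48.9.

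Other late genes also changed strongly. Slc25a31, a germ cell ADP/ATP carrier of the mitochondrial membrane, stood at 1.66 and 0.435 in LT 1dEB and at 131 and 122 in LT 1dMeioLC, a change of 6.03 (limma adjusted p = 2.52e-08). Tex101, a germ cell surface glycoprotein, changed by 5.71. The alpha-tubulin gene Tuba3b was listed at 0 in both LT 1dEB libraries and at 57.5 and 59.1 later. Its near-identical copies make its value uncertain, because reads can be split between them. The 3 members that fell were Dppa2 (-1.18), Dppa4 (-1.08) and Tex19.1 (-1.15), of which the first pair are chromatin proteins shared with pluripotent cells.

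Genes of the piRNA pathway, which silences transposons in germ cells, rose in 8 of 12 cases and fell in 1, with a median of 2.10. Asz1, a nuage protein on mitochondria, was listed at 0 in both LT 1dEB libraries and at 33.02 and 30.84 in LT 1dMeioLC. Gtsf1, a cofactor of PIWI proteins, went from 5.79 and 1.67 to 181 and 187, a change of 5.44. The co-chaperone Fkbp6 changed by 3.67 and the RNA helicase Mov10l1 by 3.25. Pld6, the mitochondrial nuclease of piRNA biogenesis, was the member that fell (-1.07). The PIWI gene Piwil2 rose by 1.67, while Piwil1, Piwil4, Tdrd1, Tdrd6, Tdrd9 and Henmt1 stayed below the filter.

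The early PGC genes did not move as a block. Of 22 that passed the filter, 10 rose, 6 fell and 6 were not called, with a median of 0.61. Of all genes 21.1% rose and 27.8% fell, so the 6 that fell are near that share. Dppa3 (Stella), a maternal and PGC chromatin protein, stood at 132 and 116 in LT 1dEB and 862 and 813 in LT 1dMeioLC, a change of 2.75 ± 0.0666 (limma adjusted p = 1.09e-10). Embryonic PGCs held 4913, well above both stages. Nanos3, an RNA-binding protein needed for PGC survival, rose from 9.26 and 15.5 to 83.9 and 89.2, by 2.75 as well, and again lay far under the 499 of embryonic PGCs. Kit, the receptor for stem cell factor, rose by 1.71, the homing receptor Cxcr4 by 3.04, Rhox9 by 2.42 and Rhox6 by 1.84.

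None of the 3 transcription factors that specify PGCs was called higher. Prdm1 (Blimp1) had 3.79 and 3.07 in LT 1dEB and 6.44 and 5.66 in LT 1dMeioLC, a change of 0.67 (limma adjusted p = 0.0021) under the 2-fold limit, which with TPM as deposited became 1.01 and was called. Prdm14 had 4.71 and 5.23 against 9.02 and 6.68, a change of 0.56 (limma adjusted p = 0.0070) under the same limit. Tfap2c fell by 1.33, from 33.8 and 30.1 to 12.3 and 11.9, but by 0.68 with TPM as deposited, which ended the call. The other members that fell, Lefty2 (-4.85), Utf1 (-4.84), Fgf8 (-4.10), Tdh (-3.30) and Alpl (-1.76), are also expressed in pluripotent or epiblast cells, so this list is not made of PGC-restricted genes.

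Meiotic genes rose with the late germ cell genes. Stra8, the RA-induced switch for meiotic entry (chr6:34920163-34939344, plus strand, mm10), had 12.0 and 13.9 in LT 1dEB and 1392 and 1409 in LT 1dMeioLC, a change of 6.66 ± 0.192 (limma adjusted p = 3.63e-10). Embryonic PGCs before the culture held 1.502 and PGC-1dMeioLC 1369, so that the LT level after the culture lay beside that of the embryonic cells; this likeness was not tested. Of 8 meiotic entry regulators that passed the filter, 5 rose and none fell, at a median of 1.34. Besides Stra8 these were Meioc, a partner of the RNA helicase YTHDC2 (2.41), the transcription factors Sohlh1 (1.61), Msx2 (1.55) and Zglp1 (1.13). The meiotic cohesin Rec8 had 14.9 and 17.2 against 21.5 and 23.7, a change of 0.47 that was not called (1.03 and called with TPM as deposited). Gm4969 (Meiosin), the Stra8 partner, did not reach the filter, with at most 1.40 scaled TPM.

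Of 17 axis and synaptonemal complex genes, 13 rose and none fell, and the median was 2.24. Sycp3, the lateral element protein, stood at 27.1 and 23.8 in LT 1dEB and at 322 and 331 in LT 1dMeioLC, a change of 3.63 ± 0.205 (limma adjusted p = 5.56e-08). Tex12, a central element protein, rose from 1.98 and 1.82 to 146 and 138, by 5.62. Syce2, its partner in the central element, was already at 126 and 125 and rose to 921 and 942. The cohesin subunit Smc1b changed by 4.26 and the axis protein Hormad1 by 3.64. In each of these 5 genes the stages did not overlap, as in 3725 of all 3727 genes called higher.

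Recombination genes followed less uniformly: 11 of 19 rose and 2 fell, at a median of 1.10. Meiob, a single-strand DNA-binding protein of recombination, had 0 and 0.815 in LT 1dEB and 20.6 and 22.6 in LT 1dMeioLC. Tex11, an X-linked crossover factor, changed by 3.45, Prdm9, which marks recombination hotspots, by 3.00, and Tex15 by 2.22. The strand exchange recombinase Dmc1, at 12.2 and 15.8 against 20.2 and 20.7, was not called (0.53). Spo11, which makes the meiotic breaks, stayed under the filter with at most 1.502 scaled TPM. The mismatch repair gene Mlh3, whose product acts at crossovers, fell by 1.76.

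**Figure D2:**
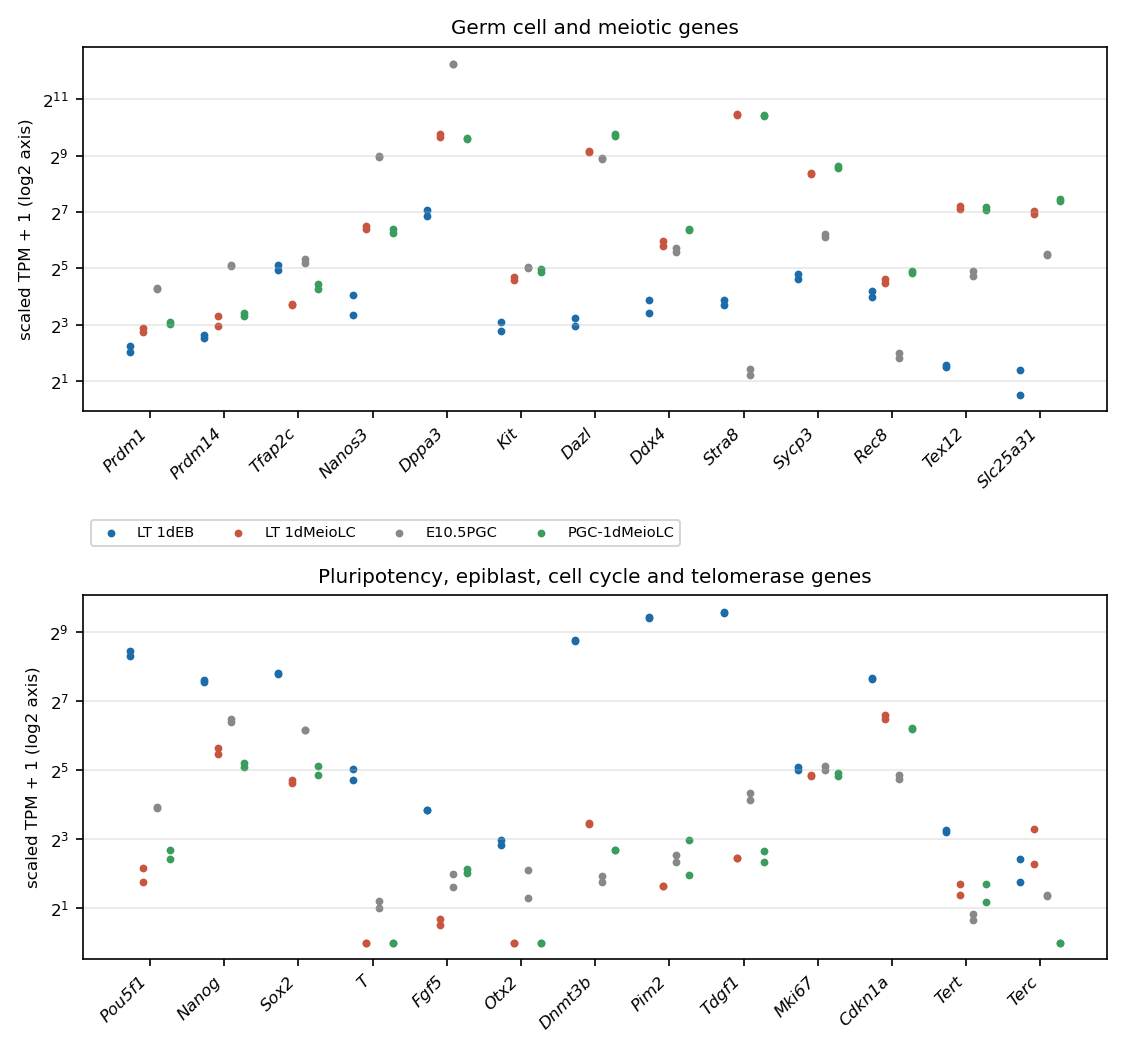
Scaled TPM + 1 (log2 axis) of named genes in each library of LT 1dEB, LT 1dMeioLC, embryonic PGCs (E10.5PGC) and PGC-1dMeioLC, 1 point per library. Dazl, Stra8, Tex12 and Slc25a31 are at 13.9 or lower in LT 1dEB and at 122 or higher in LT 1dMeioLC, while Pou5f1, Dnmt3b, Pim2 and Tdgf1 run the other way.

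Promoters of these genes were read for the sites named above. The RefSeq promoter table (GRCm38.p6, the build of mm10) spans 250 bases before to 50 after each start, and 42 of the 49 germ cell and meiosis list genes called higher had an entry. The E-box CACGTG, read on both strands, was in 18 of these 42 (42.9%), against 11.5% of 10123 kept protein-coding genes with an entry, 8.74% of those called higher and 13.5% of those called lower. It was in 8.09% of all 27025 genes of the table. The E2F6-like letters GCGGGAA, on both strands, which can share at most 1 base with an E-box, were in 15 (35.7%), against 9.87%, 9.32% and 9.41% of the same sets and 5.29% of the whole table. Both were present in 9 of the 42 (21.4%) and in 1.18% of the kept genes. The lists were drawn up from known germ cell biology, which includes genes silenced through these sites, so the shares are a description of the lists. The promoters of 3 strongly changed genes are printed 5′ to 3′ up to the first base annotated as exon, to show where the letters lie, with E-box and E2F6-like letters in capitals.
Slc25a31: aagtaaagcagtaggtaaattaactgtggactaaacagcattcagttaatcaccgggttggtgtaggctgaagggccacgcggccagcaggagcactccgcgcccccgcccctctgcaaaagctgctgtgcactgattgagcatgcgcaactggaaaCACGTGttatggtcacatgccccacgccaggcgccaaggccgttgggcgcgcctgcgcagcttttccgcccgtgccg
Sycp3: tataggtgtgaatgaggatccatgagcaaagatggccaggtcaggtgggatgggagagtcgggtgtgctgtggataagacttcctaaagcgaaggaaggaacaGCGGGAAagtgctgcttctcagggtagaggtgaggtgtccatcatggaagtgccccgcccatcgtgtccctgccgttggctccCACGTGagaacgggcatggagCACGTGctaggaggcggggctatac
Tex12: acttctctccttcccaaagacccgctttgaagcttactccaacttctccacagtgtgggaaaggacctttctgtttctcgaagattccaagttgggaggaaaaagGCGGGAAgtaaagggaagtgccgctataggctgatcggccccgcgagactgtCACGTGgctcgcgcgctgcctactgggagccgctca
These stretches lie at chr3:40708621-40708854 (plus strand), chr10:88459337-88459568 (plus strand) and chr9:50561326-50561518 (minus strand). In Slc25a31 and in Tex12 the E-box starts 93 bases before the RefSeq start. Sycp3 has 2 E-boxes, starting 64 and 43 bases before it, and its E2F6-like match starts 147 bases before it, against 145 in Tex12. Slc25a31 has its E2F6-like match in the part of the window not printed. Stra8 and Dazl held neither motif in this window.

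**Figure D3:**
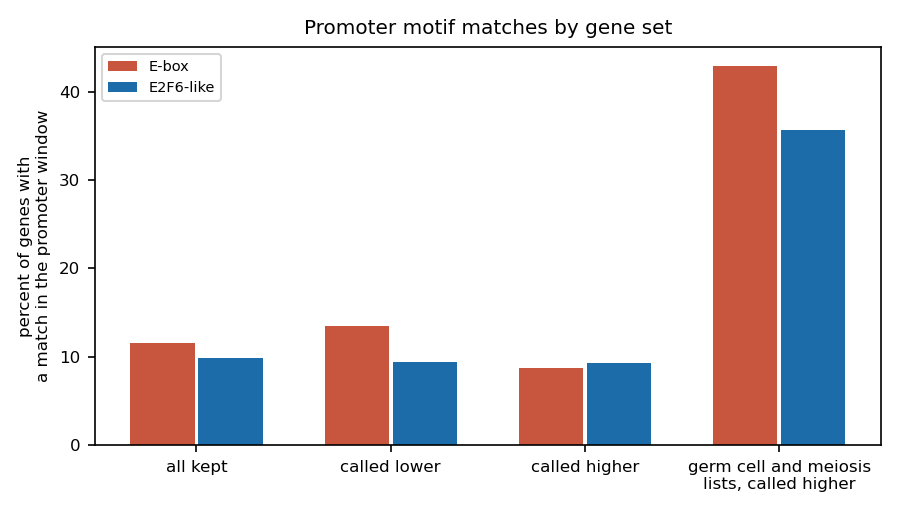
Percent of genes with an E-box or E2F6-like match on either strand of the RefSeq promoter window, for all kept protein-coding genes, genes called lower, genes called higher, and the germ cell and meiosis list genes called higher. The last set stands at 42.9% and 35.7%, the other sets between 8.74% and 13.5%.

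Members of the repressor complexes that act on such promoters changed in both directions. Of 18 genes of PRC1.6 and other repressors of germline genes, 7 fell, 2 rose and 9 were not called, at a median of -0.82. Over all genes 27.8% fell and 21.1% rose. The part of these repressors in the change of germ cell genes was not tested. The histone deacetylase Hdac1 fell from 187 and 192 to 26.4 and 27.5, a change of -2.77, L3mbtl2 fell by 2.43, the methyltransferase Ehmt2 (G9a) by 1.73 and Mga by 1.54. The heterochromatin protein Cbx3 rose by 2.21. E2f6 (0.59), Max (-0.94) and Pcgf6 (-0.86) were not called.

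DNA methylation genes fell more steeply. Of 16, 9 fell and 1 rose, at a median of -1.73. The de novo methyltransferase Dnmt3b had 423 and 435 in LT 1dEB and 10.1 and 9.85 in LT 1dMeioLC, a change of -5.29 ± 0.116 (limma adjusted p = 5.68e-11). Its cofactor Dnmt3l changed by -5.43, Tet1, which oxidises methylcytosine, by -3.46, and Zfp57, which guards imprints, by -3.24. Uhrf1, which brings the maintenance methyltransferase to replicated DNA, fell by 2.41, while that enzyme, Dnmt1, had 46.3 and 49.6 against 32.97 and 34.61 and was not called (-0.49).

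The pluripotency and epiblast programme fell. Of 23 formative and primed epiblast genes, 19 fell and 1 rose (Fgf15, 1.09), and the median of -3.16 was the lowest of all lists. The serine/threonine kinase Pim2 went from 675 and 687 to 2.14 and 2.11, a change of -7.77 ± 0.246 (limma adjusted p = 7.00e-10). The POU factor Pou3f1 fell by 6.03 and Fgf5, a marker of the primed epiblast, from 13.5 and 13.5 to 0.623 and 0.428. Otx2, a factor that opposes PGC fate, had 6.08 and 6.91 and was listed at 0 in both LT 1dMeioLC libraries. Etv4, an effector of FGF signalling, fell by 4.88 and Utf1 by 4.84.

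Of 20 core and naive pluripotency genes, 11 fell, 1 rose and 8 were not called, at a median of -1.25. Pou5f1 (Oct4; chr17:35506018-35510772, plus strand, mm10) had 318 and 350 in LT 1dEB and 3.502 and 2.381 in LT 1dMeioLC, a change of -6.42 ± 0.187 (limma adjusted p = 3.87e-10). This gene is a textbook marker of PGCs, yet it was at 14.1 in embryonic PGCs and 4.88 in PGC-1dMeioLC, so the embryonic germ cell samples were also far below LT 1dEB. Pou5f1 has processed pseudogenes that can take reads from it, and no file used here gives that share. Nanog fell from 193 and 187 to 48.8 and 43.2, a change of -2.03, and Sox2 from 222 and 221 to 23.5 and 25.2, a change of -3.13. Their means in embryonic PGCs were 85.3 and 70.5. Lin28a (-4.36), Gbx2 (-4.35) and Fgf4 (-4.11) fell most after Pou5f1. Tcl1 rose by 1.34, and Prdm14, Dppa5a, Zfp42 and Sall4 were not called.

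Signals of the epiblast fell as well. Of 19 Nodal and TGFb genes, 9 fell and 5 rose, against 27.8% and 21.1% of all genes. The Nodal co-receptor Tdgf1 (Cripto) had 773 and 746 in LT 1dEB and 4.47 and 4.49 in LT 1dMeioLC, a change of -7.12 ± 0.0986 (limma adjusted p = 3.77e-12). The Nodal antagonists Lefty1 and Lefty2 fell by 5.50 and 4.85, and Nodal itself by 3.86. The 5 that rose, near the share of all genes, included Skil (2.58), Tgfb2 (2.37) and Smad3 (2.02). Of 25 FGF and MAPK feedback genes, 14 fell and 6 rose. Fgf17 had 22.7 and 26.6 and was listed at 0 later. Fgf8 and Fgf4 fell by 4.10 and 4.11, while the immediate early gene Fos rose by 3.58. Of 20 BMP pathway genes 5 rose and 4 fell, near the shares of all genes (21.1% higher, 27.8% lower). Grem1, a BMP antagonist, fell by 5.32, and the ligands Bmp2 and Bmp7 rose by 2.60 and 2.50.

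Among primitive streak and mesoderm factors, 13 of 26 passed the filter, of which 6 rose and 5 fell, at a median of 0.84. Over all genes 21.1% rose and 27.8% fell. T (Brachyury), which is transiently induced on the way to PGCs, had 31.8 and 25.4 in LT 1dEB and was listed at 0 in both LT 1dMeioLC libraries. Wnt3 fell by 3.16, while Gata6 rose most of the list, by 4.59. Of 6 ectoderm and neural genes, 3 fell (Sox1, Tubb3 and Nes) and 2 rose, one of which was Sox9 (1.67).

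Genes of RA response and metabolism mostly rose. Of 23, 15 rose and 5 fell, against 21.1% and 27.8% of all genes, at a median of 2.17. Cyp26b1, which degrades RA, had 0 and 0.173 in LT 1dEB and 40.2 and 37.9 in LT 1dMeioLC, a change of 5.21 ± 0.194 (limma adjusted p = 2.28e-09). The retinal reductase Dhrs3 rose from 7.57 and 7.91 to 219 and 219, by 4.66, and Cyp26a1 by 4.40. The receptor Rarb rose by 4.49, from 0.191 and 0 to 22.8 and 24.3, while the receptors Rarg (-4.94) and Rara (-3.44) fell. The direct repeat with a spacer of 5 bases that is known from Rarb, a type of site RA receptors bind, was searched with its exact half-sites and any spacer. It was found on either strand of the window in 1 of the 8 RA genes called higher that had an entry. The same gene, Rarb, was the 1 match among the 10123 kept genes. Since the letters were taken from Rarb, its match was known in advance and says nothing about RA genes as a set. A direct repeat of AGGTCA with the same spacer was found in none of the kept genes, and in 3 of all genes of the table. The match is shown with its flanks, the direct repeat in capitals, at chr14:16575508-16575534 (minus strand), starting 53 bases before the RefSeq start.
Rarb: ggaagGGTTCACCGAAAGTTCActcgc

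Hox genes, which set position along the body axis and several of which respond to RA, rose in 22 of 28 cases and fell in 1 (Hoxb1, -1.02), at a median of 2.01. A further 11 of the 39 genes did not pass the filter, most of them from the 5′ ends of the clusters. Hoxd8 went from 0.550 and 1.01 to 32.6 and 38.4, a change of 4.37, Hoxa5 changed by 4.07 and Hoxb7 by 3.67. Hoxd1 was listed at 0 in LT 1dEB and at 7.22 and 9.20 later. Of 16 endoderm genes, 9 rose and 1 fell. Gata6 rose by 4.59 and Gata4 by 3.77, both of which gonadal somatic cells also express. Ttr, of the same list, rose by 3.63, from 0.413 and 0 to 13.45 and 14.05. The endoderm apolipoprotein gene Apoa2 fell by 3.78. Sox17, Foxa1 and Foxa2 did not pass the filter.

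Markers of gonadal and blood cells rose in the same libraries. In bulk samples, more cells of a type and more RNA per cell cannot be told apart. Of 16 gonadal somatic markers that passed, 14 rose and none fell, at a median of 3.33. Their summed level was 76.8 and 78.8 in LT 1dEB and 630 and 644 in LT 1dMeioLC. The coelomic and gonadal factor Wt1 had 6.34 and 7.47 against 63.8 and 56.3, and Gata4 2.32 and 2.13 against 42.7 and 43.3. Foxl2, the granulosa cell factor, had 0 and 0.284 against 14.9 and 16.3, and the steroidogenic factor Nr5a1 0 and 0.109 against 11.5 and 14.1. The largest changes were those of the stromal nuclear receptor Nr2f2 (6.43), the ovarian signal Wnt4 (5.62) and the mesenchymal factor Tcf21 (5.44). In PGC-1dMeioLC, sorted from the same kind of aggregate, the summed level was 776 and 763.

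Of 14 macrophage and blood markers that passed, 12 rose, at a median of 5.34, the highest of all lists. Their summed level was 72.4 and 63.4 in LT 1dEB and 3515 and 3644 in LT 1dMeioLC. Most of it was globin: Hba-a1 had 1.86 and 0 in LT 1dEB and 1798 and 1854 in LT 1dMeioLC, and Hbb-y, an embryonic globin, was listed at 0 and then at 788 and 846. Hba-a1 was also at 1253 in embryonic PGCs, and reads can be split between it and a near-identical copy. Lyz2, a lysozyme of macrophages, was listed at 0 and then at 126 and 131, and C1qa at 0 and then at 20.74 and 18.01. Csf1r fell by 1.87, and Ptprc, a pan-leukocyte gene, stayed under the filter with 1.00 and 1.02 in LT 1dMeioLC.

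Fibroblast and stroma markers rose in 13 of 19 cases and fell in 2 (Thy1 and S100a4), with a summed level of 121 and 128 against 851 and 826. Col3a1 had 0.615 and 0.519 against 104 and 97.9, a change of 6.02, and Col1a1 changed by 4.52. Of 9 endothelial markers that passed, 5 fell and 2 rose, against 27.8% and 21.1% of all genes. The summed endothelial level was 101 and 118 against 44.3 and 45.3. The endothelial cadherin Cdh5 had 0.120 and 0.551 against 2.60 and 2.67, and Tek did not pass the filter. Sex-linked RNAs were read in the same libraries. Xist, made by cells with an inactive X such as those of the female gonad, had 7.39 and 6.22 against 6.92 and 6.24 and was not called. Its means were 0.207 in embryonic PGCs and 13.8 in PGC-1dMeioLC. From 1dEB to 1dMeioLC the Xist mean went from 34.8 to 15.2 in ST and from 22.0 to 6.07 in RT. What the Xist level says about gonadal cells was not tested. Of 2 Y-linked genes, Eif2s3y had 21.9 and 25.7 against 25.9 and 26.2 and was not called, and Ddx3y fell from 22.95 and 18.69 to 9.61 and 9.27, by 1.06 (limma adjusted p = 1.39e-05).

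These markers moved with the RA, Hox, endoderm, imprinted and interferon groups, since all compare the same 4 libraries. Their part in those results was not tested. The germ cell genes Dazl, Stra8 and Sycp3 had 471, 1.502 and 70.4 in embryonic PGCs, in which the summed gonadal somatic level was 61.6 and 64.8.

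**Figure D4:**
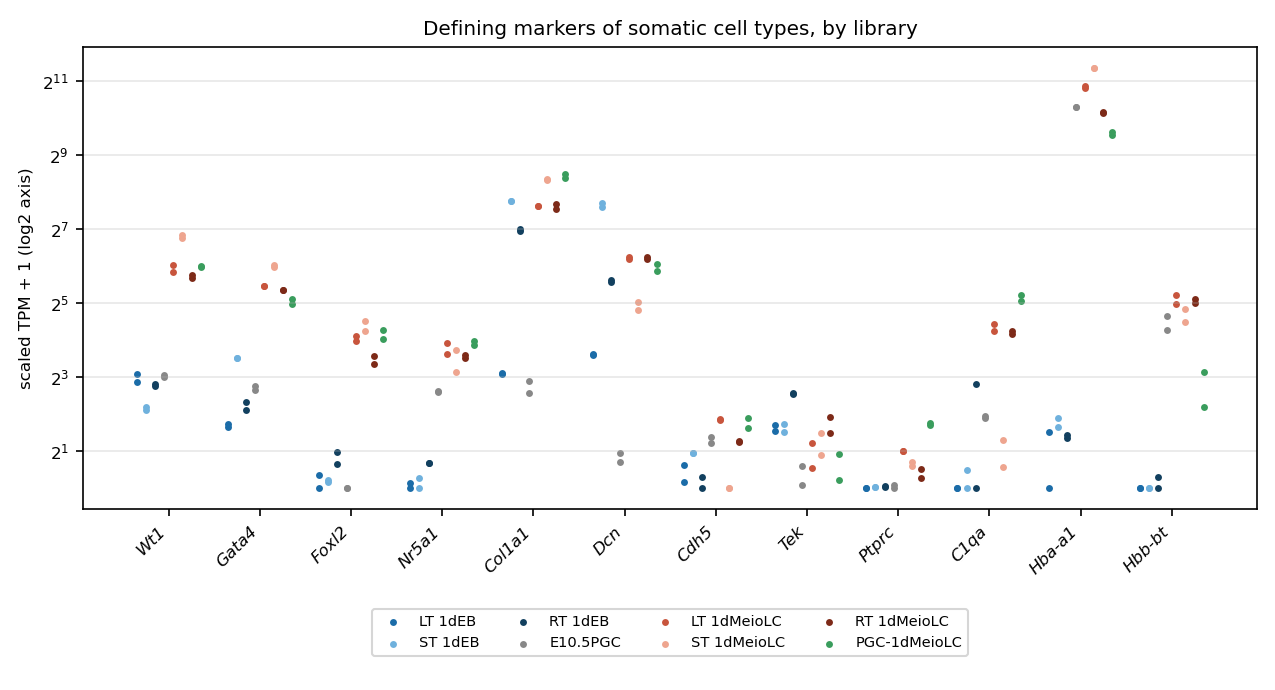
Scaled TPM + 1 (log2 axis) of defining markers of gonadal somatic cells (Wt1, Gata4, Foxl2, Nr5a1), fibroblasts (Col1a1, Dcn), endothelium (Cdh5, Tek), macrophages (Ptprc, C1qa) and red blood cells (Hba-a1, Hbb-bt), 1 point per library, in all 8 groups. Each gonadal marker is higher in every library of the 4 groups from aggregates than in the other libraries, and Hba-a1 is at 1.86 or lower in LT 1dEB and at 1798 and 1854 in LT 1dMeioLC.

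Imprinted genes rose in 12 of 28 cases and fell in 5, against 21.1% and 27.8% of all genes, at a median of 0.86. H19, a maternally expressed RNA, went from 19.23 and 22.38 to 853 and 842, a change of 5.28 ± 0.0617 (limma adjusted p = 3.77e-12), and its paternally expressed neighbour Igf2 from 8.18 and 6.63 to 194 and 206, a change of 4.58. Embryonic PGCs had means of 66.4 and 14 of them. Zim1 (4.14) and Sgce (2.81) followed. Snrpn (-1.89), Ascl2 (-1.84) and Meg3 (-1.36) were among those that fell.

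Interferon and innate response genes rose in 13 of 21 cases and fell in 3, at a median of 1.28. The antiviral gene Rsad2 had 2.21 and 2.24 against 44.2 and 42.4, a change of 3.78. B2m, the light chain of MHC class I, rose from 595 and 568 to 4787 and 4647, by 3.02, and Usp18 by 3.22. Bst2 (-3.76), Irf1 (-2.69) and Isg15 (-2.36) fell, so the list did not move as a block.

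Proliferation genes fell in 13 of 29 cases and rose in 2, at a median of -0.82. Over all genes 27.8% fell and 21.1% rose. Mki67, a marker of cycling cells, had 33.02 and 31.09 against 27.6 and 28.0 and was not called (-0.20), and neither were Ccnb1, Cdk1 and Pcna. Those that fell most were the G1/S cyclin gene Ccne1 (-2.64), E2f1 (-2.48), the mitotic kinase gene Plk1 (-2.38) and Mycn (-2.26). Among CDK inhibitors and p53 targets, 11 of 26 fell and 5 rose, the latter near the share of all genes. Trp53 itself had 364 and 370 against 56.0 and 55.2, a change of -2.70. Cdkn1a (p21) fell from 201 and 199 to 96.4 and 88.6, by 1.10, and the change was -0.87 with median-of-ratios scaling and -0.46 with TPM as deposited, neither of them called. The proapoptotic p53 targets Bbc3 (-3.97) and Pmaip1 (-3.18) fell further. Cdkn1b (p27) rose by 2.54. Of 16 Bcl2 family genes, 9 fell, among them Bax (-2.66) and Hrk, and 1 rose, Bcl2a1a, a gene of myeloid cells with near-identical copies.

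Of 21 telomere genes, 10 fell, 1 rose and 10 were not called in this wild-type line, at a median of -0.94. Tert, the catalytic subunit of telomerase, had 8.17 and 8.56 in LT 1dEB and 1.62 and 2.24 in LT 1dMeioLC, a change of -1.69 ± 0.2 (limma adjusted p = 2.02e-05), which fell short of the 2-fold limit with TPM as deposited (-0.97) and with a pseudocount of 5 (-0.95). Terc, its RNA template, had 2.38 and 4.38 against 3.88 and 8.86, with overlap, and was not called (0.70, against 1.02 and called with TPM as deposited). The telomerase assembly proteins Gar1 (-2.23), Wrap53 (-1.52), Nhp2 (-1.43) and Dkc1 (-1.33) fell with Tert, as did the chromatin remodeller Atrx (-1.72). Zscan4c, of a multigene family, rose from 0 in both libraries to 3.57 and 1.88.

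The counts of the cholesterol and glycolysis lists lay near the shares of all genes (21.1% higher, 27.8% lower), so they are no result about these lists. Of 22 cholesterol genes 4 rose and 6 fell: Insig1 (3.31), a feedback regulator of sterol synthesis, rose, and Pmvk (-1.82), a kinase of the mevalonate pathway, fell. Of 22 glycolysis and hypoxia genes 5 rose and 7 fell, led by Bnip3 (3.597), a mitophagy receptor, and the lactate exporter Slc16a3 (-2.77). Mitochondrially encoded protein genes held 1.98% of TPM in LT 1dEB and 5.96% in LT 1dMeioLC (means). On the main scaling mt-Cytb rose by 2.37 and mt-Co1 by 1.11, mt-Nd3 fell by 4.36, and 9 of 13 were not called. With TPM as deposited the medians of the glycolysis, cholesterol and mitochondrial lists turned positive. Among adhesion and migration genes, 4 of 19 rose and 4 fell, again near the shares of all genes. One of those that fell was the cadherin Cdh1 (-2.03).

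Some of the genes with the largest changes lay outside the lists. Among them were cystatins and WAP-type protease inhibitors that rose: Cst8 was listed at 0 in LT 1dEB and at 393 and 418 in LT 1dMeioLC, Cst12 at 0 and then at 147 and 140, and Wfdc15b at 0 and then at 144 and 134. The protease inhibitor Spink8 went from 0.613 and 1.69 to 404 and 406, a change of 7.61 ± 0.26 (limma adjusted p = 1.23e-09), with 0.133 in embryonic PGCs and 209 in PGC-1dMeioLC. Wfdc10 changed by 6.94 and the growth factor binding protein Igfbp5 by 6.79. At the other end stood Trh, the precursor of thyrotropin-releasing hormone, at 1150 and 1222 in LT 1dEB and 0.178 and 0 in LT 1dMeioLC. Lars2, a mitochondrial leucyl-tRNA synthetase gene, fell by 7.46, beside the fall of mitochondrial rRNA given above, whose part in it was not tested. Olig1 (-5.61) and the intermediate filament gene Prph (-5.55) were also among the 10 that fell most. Short structural RNAs were lower as classes: of 255 snoRNA genes 152 fell and 11 rose (median -2.51), and of 107 snRNA genes 54 fell and 7 rose (median -2.46). Of 570 lincRNA genes, 203 rose and 137 fell, against 21.1% and 27.8% of all genes.

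The changes were not spread evenly over chromosomes. On chromosome 11, 42.7% of 1058 protein-coding genes fell and 12.9% rose, with a median of -0.76, against 24% lower and 21.5% higher (median -0.10) for the genes of all other chromosomes. On the X chromosome 36.9% of 517 genes rose and 14.7% fell (median 0.43). The median stage change on chromosome 11 was -0.34 in ST and -0.52 in RT. LT 1dEB was above ST 1dEB by a median of 0.41 and above RT 1dEB by 0.28 on chromosome 11, against -0.01 and -0.08 for the other chromosomes. In the 1dMeioLC groups the same differences were -0.07 and 0.04. The distance between the lines on chromosome 11 was thus larger at 1dEB, and its cause was not tested. Without chromosome 11 genes, chosen as an alternative after seeing the data, 3538 genes were higher and 4316 lower.

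**Figure D5:**
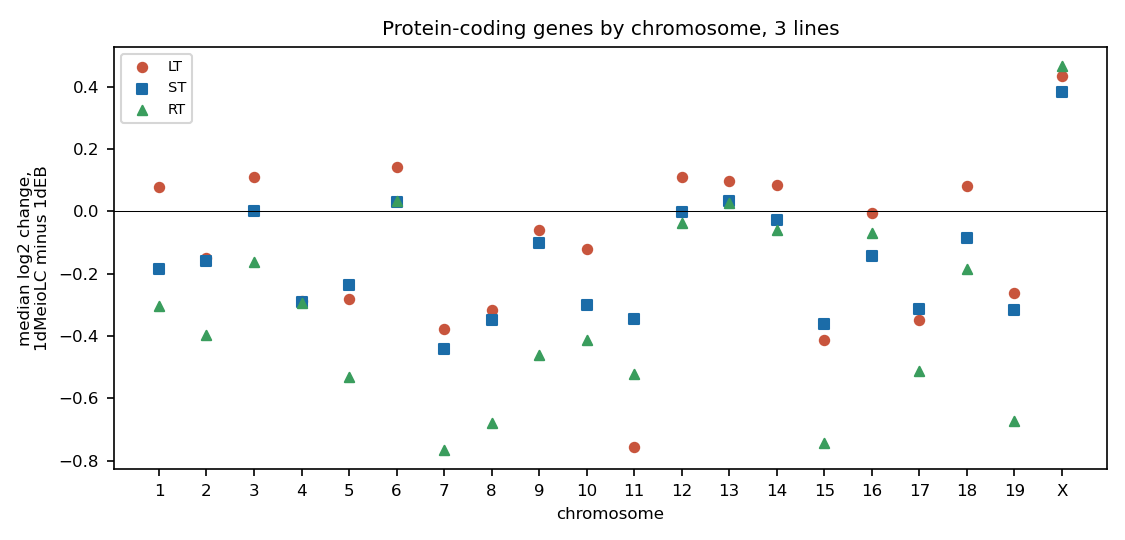
Median log2 change from 1dEB to 1dMeioLC of protein-coding genes on each chromosome, for LT, ST and RT. Chromosome 11 stands lowest for LT at -0.76, and for LT the X chromosome stands highest at 0.43.

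Where the LT progression differed from that of the other lines was tested as a difference of stage effects. LT minus ST called 4088 of 17699 genes (23.1%), 2396 with a higher and 1692 with a lower effect in LT. LT minus RT called 3050 (17.2%), 2239 higher and 811 lower. That last split turned with TPM as deposited, to 978 higher and 1739 lower, and was 1388 and 1104 with median-of-ratios scaling and 1530 and 1300 with quantile normalization. The median difference over all genes moved from 0.17 to -0.19 with TPM as deposited. Both differences use the same LT libraries. Dppa3 rose in LT and had means of 47.0 and 50.4 in the 2 ST stages, a difference of 2.65 ± 0.0941 (limma adjusted p = 3.35e-08), whereas RT went from 74.4 to 548 and the difference from LT was -0.11 (not called).

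Late germ cell and piRNA genes also separated LT from ST. The effect was higher in LT for 7 of 21 late germ cell genes and lower for 2, and higher for 6 of 12 piRNA genes and lower for 1, against 13.5% and 9.56% of all genes. Dazl differed by 1.47, with ST means of 5.29 and 149, and Ddx4 by 1.78, with ST means of 7.63 and 10.4. Against RT the differences were 0.64 and 0.58, not called. For Stra8 the difference from ST was 0.07 ± 0.271 and not called, with ST means of 5.27 and 581. Of 17 synaptonemal and axis genes, 2 had a higher and 1 a lower effect in LT than in ST.

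Some pluripotency genes fell further in LT. Against ST the effect was lower in LT for 4 of 20 core and naive genes and higher for 1. It was lower for 8 of 23 formative and primed genes and higher for 1. The shares of all genes in this difference were 9.56% lower and 13.5% higher. Nanog, which had means of 88.7 and 130 in ST, differed by -2.58, and by -1.69 from RT. Pou5f1 differed from ST by -1.93. Stroma markers separated the lines at the first stage: the 1dEB means of Col1a1 were 213 for ST, 125 for RT and 7.57 for LT, and 19 of 19 stroma markers had a higher effect in LT than in ST. Interferon genes did so for 15 of 21. The summed stroma level in 1dEB was 2161 and 2181 for ST and 1048 and 1045 for RT, and its part in these differences was not tested. Cdkn1a fell by 1.10 in LT, from a mean of 1898 to 130 in ST and from 1002 to 64.8 in RT, so that its stage effect was higher in LT by 2.76 and 2.83. The lines' levels of Cdkn1a in 1dMeioLC were 92.5 in LT, 130 in ST and 64.8 in RT.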

How the data were processed

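RNA-seq values of the 16 libraries analysed (8 groups of 2) were taken from the authors' deposited table of TPM, a length-corrected share of transcripts. Per the submitters' processing notes, Bowtie2, HISAT2, RSEM, R 3.4.2 and DESeq2 were used and the build was mm10; neither their order nor strandedness or read depth are stated there. Reads of antisense or overlapping genes may therefore be mixed. A further 12 columns of the table did not match 1 sample and were not used. TPM were rescaled so that nuclear protein-coding genes (GENCODE M21) added up to 1000000 per library, and log2(scaled TPM + 1) was fitted with limma 3.58.1 in R 4.3.3 as 8 group means, with trended empirical Bayes and two-sided tests over the 17699 genes kept. On simulated data, 92% of 100 genes changed by 1.5 and 98% of 100 changed by 3 (log2) were recovered. There were 6 false among 196 calls over 17699 genes. All other genes had no stage change there, noise was normal with the fitted spread, and no low genes were among those changed. In the data 48.9% of genes were called, so these rates need not hold for the calls given here.

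Named genes were 22 anchor genes, from each list up to 4 called genes of largest change without overlap, the 10 highest and 10 lowest protein-coding genes of at least 10 scaled TPM, and the 4 highest and lowest of each difference between lines. Other list members, and Xist, Eif2s3y and Csf1r among them, were named after their values were seen. The comparison and the lists were chosen with earlier results of these data known. Alternatives changed the scaling, pseudocount, filter, libraries, trend, fold limit and replicate block.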

Additional observations from a re-analysis of the deposited data

Results flagged for a closer look

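Several genes changed differently between the stages in LT than in ST or RT by the test of that difference (limma, adjusted p under 0.05 and at least 2-fold), and no group had enough libraries to look for single libraries that stand apart. Among the germ cell and pluripotency genes, LT minus ST was 1.66 for Nanos3, 2.65 for Dppa3, 1.47 for Dazl, 1.78 for Ddx4, -1.93 for Pou5f1, -2.58 for Nanog and -1.20 for T. It was -1.36 for Tert and 2.76 for Cdkn1a. LT minus RT was 1.73 for Nanos3, -1.69 for Nanog, -3.29 for T, -2.08 for Fgf5, 2.12 for Terc and 2.83 for Cdkn1a. The call for Terc was lost without LT 1dEB replicate 1, LT 1dMeioLC replicate 2, RT 1dEB replicate 1 or RT 1dMeioLC replicate 2, at 1.37 to 1.79, and that for T against ST without ST 1dMeioLC replicate 1, at -0.99. Where a group is listed at 0, the size of a difference depends on the pseudocount.

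Wide differences from ST among genes of longer transcripts were those of the peptide hormone Pyy (9.39), Ctla2a (8.48) and the neuropeptide Npy (7.11). Pyy was at 14.6 in ST 1dEB and listed at 0 in ST 1dMeioLC, while in LT it went from 0 and 0.733 to 56.7 and 55.1. Ctla2a fell in ST from 65.4 to 0.184 and rose in LT to 20.7 and 21.1. Npy fell in ST from 756 to 6.61 and was not called in LT. The interferon Ifna4 differed by -5.26, with 149 in ST 1dMeioLC against 2.19 and 3.82 in LT.

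The remaining genes are short RNAs or gene segments, for which few reads give a large TPM. From ST these were Mir199a-2 (6.68), Snord64 (-9.37), Mir6918 (-6.80) and Mir6973b (-6.18). From RT they were Mir484 (7.83), Mir7669 (7.07), Trdj1 (6.94), Mir1905 (5.62), Mir20b (-6.50), Mir719 (-6.07) and Snord64 (-5.26), with the host gene Mir142hg (-5.28).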

How the results depend on the processing

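Of the 8652 genes called in LT, 5635 kept their call and direction with a pseudocount of 5 and 6378 with TPM as deposited. With median-of-ratios scaling 7249 did, with quantile normalization 7970, and 7939 to 8108 when 1 of the 4 libraries was left out. The filter of at least 5 TPM, which tested fewer genes, kept 5371. None was called in the opposite direction in any alternative. TPM as deposited gave 2697 lower in LT, 899 lower in LT minus ST, and 978 higher and 1739 lower in LT minus RT. Quantile normalization gave 1300 lower and median-of-ratios scaling 1388 higher in LT minus RT. A pseudocount of 5 gave 2274 higher in LT, 1494 higher and 957 lower in LT minus ST and 1168 higher in LT minus RT. At least 5 TPM gave 2352 higher and 3026 lower, 1214 and 1028, and 1049 and 532, in the same order, over fewer genes. No filter gave 4210 higher in LT minus RT. Adjusted p alone gave 5694 and 7557, 3676 and 3910, and 4094 and 2243. Leaving aside medians too small to have a clear sign, the list medians that changed sign were adhesion at 5 TPM (-0.12) and 3 as deposited. These were glycolysis (0.28), cholesterol (0.26) and mitochondrial genes (0.51). Leaving out 1 library gave 3568 to 3671 higher and 4646 to 4848 lower in LT, 2197 to 2349 and 1467 to 1747 in LT minus ST, and 1966 to 2172 and 679 to 861 in LT minus RT. Causes were not tested.

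The replicate block gave 3728 higher and 4916 lower in LT, 2374 and 1687 in LT minus ST, and 2235 and 808 in LT minus RT, and changed no call among the named genes. Deviations of same-numbered LT libraries correlated at r = -0.0215, so the numbers show no pairing. With 2 libraries a group, unknown depth and stages that differ in medium, co-culture and sorting, the comparison describes these libraries and not a single step of the culture.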
